A study of Homo sapiens with 9 samples.

Results

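The genes described here are 33 targets of the transcription factor p53, taken as a list of symbols. Each gene was read from the probe set whose platform annotation gives that symbol alone and whose mean over all 9 arrays was highest. All 33 had such a probe set and all 33 passed the filter on dim signals, which left 13697 genes with a single symbol in 20068 features tested. Affymetrix arrays measured RNA from the established human glioma cell line U87, with 1 array per biological replicate and 3 replicates in each of 3 groups. In every group 100000 cells received 50 nM of an RNA duplex with a lipid reagent and were lysed 24 h later. The first group received miR-376a*A, the second miR-376a*G and the third a control miRNA, so all 3 groups had been transfected and untransfected cells were not analysed here. From published studies of this miRNA, miR-376a*A corresponds to the transcript before A-to-I editing and miR-376a*G to the edited one, in which inosine is read as G.

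p53 binds DNA as a tetramer at paired half-sites and raises transcription of nearby genes when cells sense DNA damage, stalled ribosomes or activated oncogenes. Its targets stop the cell cycle, repair DNA, adjust metabolism, start apoptosis and, through MDM2 and PPM1D, turn p53 itself down again. U87 cells are known to carry intact p53 and to lack the CDKN2A locus, so that the response can be followed in them.

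The mature sequence on which the transfected duplexes are based is shown because the A and G forms differ from each other within it. RefSeq (GRCh38.p14) places hsa-miR-376a-5p, the current name of miR-376a*, at chr14:101040788-101040809 on the plus strand, with its seed (bases 2 to 8) in capitals below.
hsa-miR-376a-5p: gUAGAUUCuccuucuaugagua
The sequences of the G form and of the control duplex were not used here.

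Windows of 300 bases, from 250 before to 50 after each annotated gene start, were read from RefSeq (GRCh38.p14) for 25 of the 33 genes. The other 8 had no window and were not searched: RRM2B, TNFRSF10A, TNFRSF10B, TNFRSF10C, TP53INP1, GADD45A, PHLDA3 and FBXO22. The p53 half-site consensus of 10 letters was searched without mismatch, and as it is its own reverse complement a match on 1 strand is a match on both. It occurred in 7 of the 37 windows of these genes (18.9%), which belong to 7 genes, and in 6.63% of all 35116 windows. The matches are printed 5′ to 3′ on the strand of the gene with the half-site in capitals, since these genes are described below, and positions count the first base of the gene as 1 with no position 0.
SESN1: tgtcgtctGGACAAGTCTccacaagt
FAS: gaactcctGGACAAGCCCtgacaagc
PLK2: gcgggacaAGACTTGCTTcccggcca
AEN: tcggagccGGGCTTGCCCgggcatgt
RPS27L: cctagagcAGACAAGCCCgccccgcc
CASP8: ttccaataAAGCATGTCCagcgctcg
DDB2: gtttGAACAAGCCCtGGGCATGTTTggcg
The half-sites lie at -49 to -40 in SESN1 (the printed bases at chr6:109009020-109009045, minus strand), -122 to -113 in FAS (chr10:88991301-88991326, plus) and -132 to -123 in PLK2 (chr5:58460201-58460226, minus). Those of AEN, RPS27L and CASP8 lie at -34 to -25 (chr15:88621298-88621323, plus), -59 to -50 (chr15:63157519-63157544, minus) and -121 to -112 (chr2:201257906-201257931, plus). DDB2 was the only one of the 25 genes with 2 half-sites apart by at most 13 bases and at most 1 mismatch in all. Its pair, at 6 to 26 from the start (chr11:47214975-47215003, plus), has 1 base between the half-sites and no mismatch. Pairs with at most 1 mismatch in all occurred in 1 of the 37 windows (2.7%) and in 0.402% of all windows. A match in these letters is a description of the window and not evidence of binding.

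With miR-376a*A, 12 of the 33 genes passed as higher than in the control and 4 as lower, while 17 did not pass. The threshold was an adjusted p of 0.05 (Benjamini-Hochberg, over all features) in limma's moderated test on log2(signal + 16). Among all features 20.8% passed in this comparison (10.8% higher and 10% lower), against 48.5% of the 33 genes. With miR-376a*G, 10 passed as higher and 7 as lower, 51.5% of the 33, where 24.9% of all features passed (11.8% higher and 13.1% lower). Calls are more frequent among bright genes, and the 33 had a median signal of 296 against 77.8 over all features. Of the 25 members with a mean signal over 100, 13 (52%) passed with miR-376a*A and 14 (56%) with miR-376a*G, while among all single-symbol genes above that signal 30% and 37.7% did. Without the limit on signal 22.4% and 28.4% of single-symbol genes passed. Without miR-376a*A replicate 2, 2 members rather than 4 were lower with that form, as XPC and ZMAT3 no longer passed. As whole cultures were measured, fewer cells that express a gene and less RNA per cell cannot be told apart.

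The forms were also set against each other, which tests their difference directly. There 9 of the 33 genes were higher with miR-376a*A, 4 were lower and 20 did not pass, where 18.3% of all features passed (10.4% higher and 7.9% lower). The median log2 difference over the 33 genes was 0.14 with miR-376a*A against control, 0.0011 with miR-376a*G against control and 0.11 between the forms, beside 0.04, -0.0038 and 0.03 over all features. The arrays of one group lay wholly above or below those of the other in 21, 20 and 22 of the 33 genes, and in 36.7%, 38.3% and 42.2% of all features. RRM2B and TNFRSF10B differed at least 2-fold between the forms, and among all features 0.997% passed at that size. Against the control 0 of the 33 reached 2-fold with miR-376a*A (0.917% of all features) and 1 did with miR-376a*G, TNFRSF10B (1.22% of all features). Between the forms 10 of the 25 bright members passed (40%), where 26.3% of single-symbol genes of like signal and 20.5% at any signal did. In a fit that leaves out control replicate 1, GADD45A, FAS, TP53INP1, CCNG1 and RPS27L also passed between the forms (13 higher and 5 lower in all), and TP53INP1 did so without control replicate 2. The comparisons with the control share the 3 control arrays, so the values of the forms are given side by side.

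**Figure D1:**
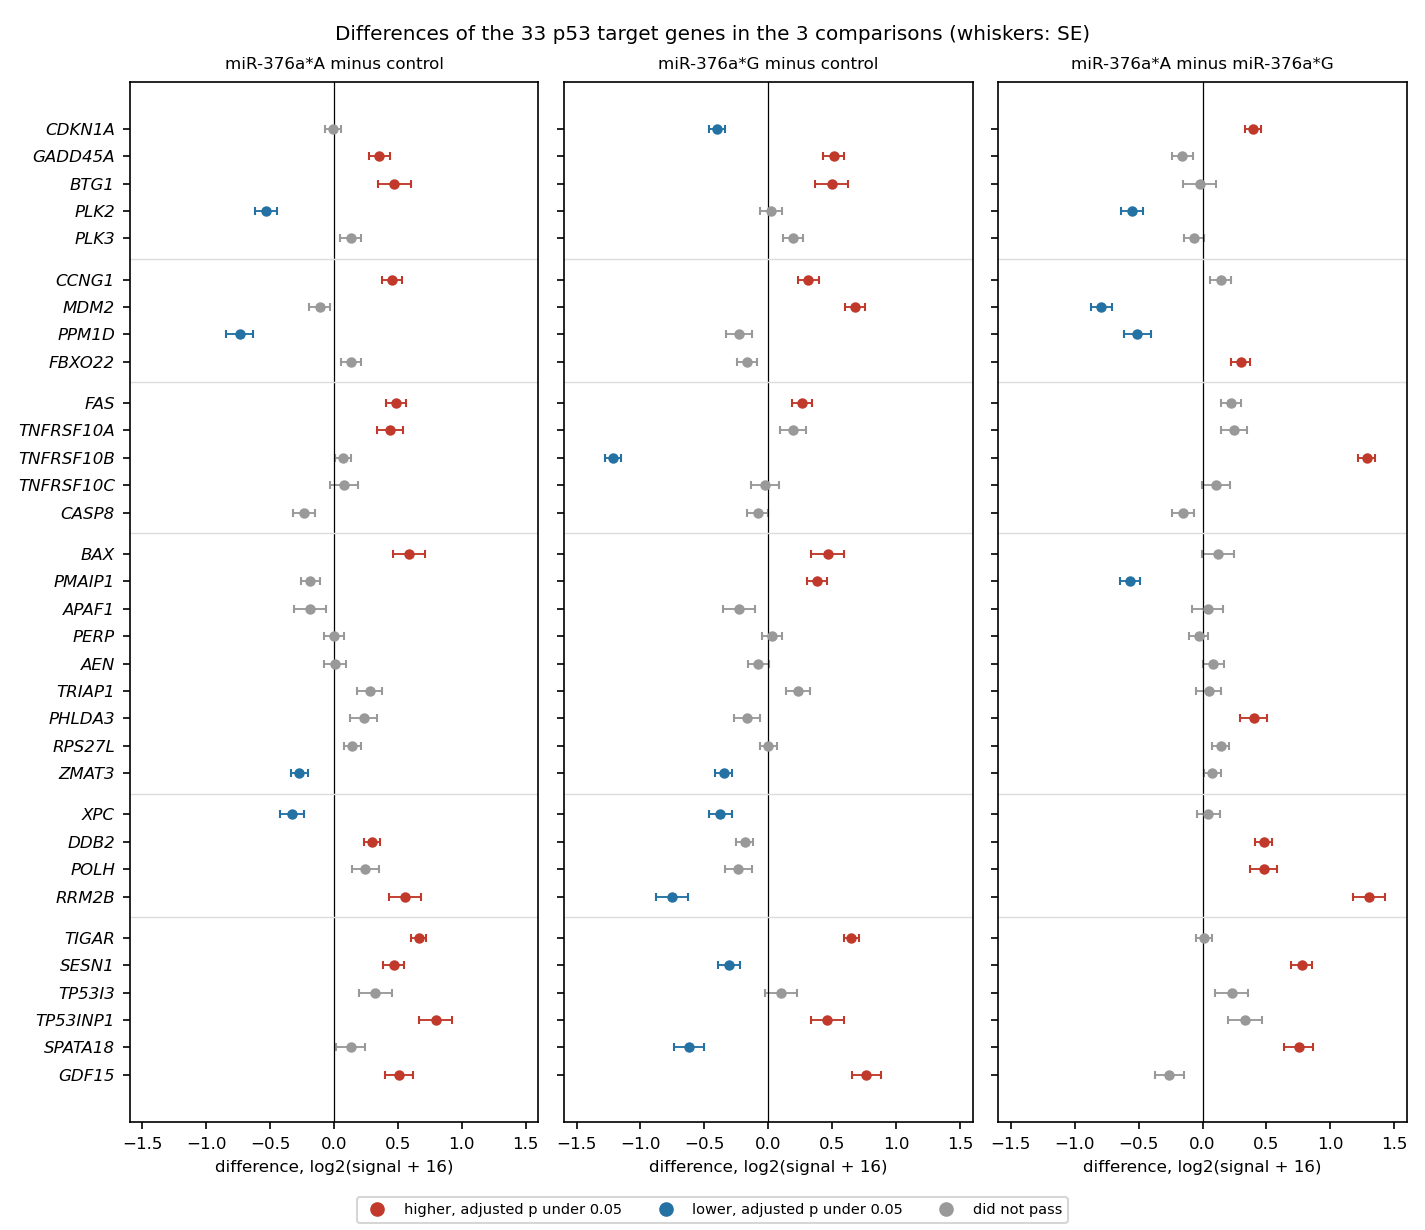
Differences of the 33 genes on the log2(signal + 16) scale for miR-376a*A minus control, miR-376a*G minus control and miR-376a*A minus miR-376a*G, with whiskers for the SE and colours for genes that passed as higher, passed as lower or did not pass. From top to bottom the blocks hold genes of cell cycle arrest, feedback on p53, death receptors with CASP8, other apoptosis genes, DNA repair, and metabolism with GDF15, and RRM2B and SESN1 lie right of 0 in the first panel and left of 0 in the second.

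Of the 4 genes of DNA repair and nucleotide supply, 3 (RRM2B, DDB2 and POLH) were higher with miR-376a*A than with miR-376a*G. In that comparison 0 were lower and XPC did not pass. Among all features 10.4% were higher and 7.9% lower there, and a block of 4 genes is small. RRM2B encodes the p53-induced subunit of ribonucleotide reductase, which supplies nucleotides for repair. Its signal was 305, 287 and 265 with miR-376a*A, 93.5, 106 and 119 with miR-376a*G and 224, 149 and 201 with the control miRNA. The 3 groups did not overlap, with miR-376a*A highest and miR-376a*G lowest, although the control arrays were the most spread. The log2 difference from the control was 0.56 ± 0.13 (SE, adjusted p = 0.00749) with miR-376a*A and -0.75 ± 0.13 (SE, adjusted p = 0.000852) with miR-376a*G, and that between the forms was 1.31 ± 0.13 (SE, adjusted p = 1.21e-05), or 2.47-fold.

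DDB2, a subunit of the complex that recognises ultraviolet damage, had signals of 489.5, 545 and 538 with miR-376a*A, 365, 377 and 370.1 with miR-376a*G and 414, 444 and 412 with the control miRNA. All 3 miR-376a*A arrays were above, and all 3 miR-376a*G arrays below, the control arrays. The rise with miR-376a*A was 0.30 ± 0.066 (SE, adjusted p = 0.00693), the value for miR-376a*G was -0.18 ± 0.066 (SE, adjusted p = 0.0614) and did not pass, and the forms differed by 0.48 ± 0.066 (SE, adjusted p = 0.000251). Without control replicate 1 the value for miR-376a*G passed, at -0.20 (adjusted p = 0.0301). It is also the gene whose paired half-sites are printed above. For POLH, the translesion polymerase eta, signals were 94.1, 105 and 98.2 with miR-376a*A, 64.7, 60.5 and 74.8 with miR-376a*G and 73.0, 97.7 and 74.1 with the control miRNA. The miR-376a*A arrays were all above the miR-376a*G arrays, while the control arrays overlapped both. POLH did not pass against the control with either form (0.24 ± 0.11 and -0.23 ± 0.11, SE), yet the forms differed by 0.48 ± 0.11 (SE, adjusted p = 0.00744). With miR-376a*A it passed without control replicate 2 (0.36, adjusted p = 0.0181). The 5 other tested probe sets of POLH had the same sign between the forms, from 0.12 to 0.40, and none passed. Against the control 1 of them passed as higher with miR-376a*A, at 0.39. With miR-376a*G they disagreed, with -0.47 and 0.28 each passing.

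XPC, the damage sensor of global nucleotide excision repair, moved the other way from RRM2B and DDB2 with miR-376a*A. Its signals were 195, 206 and 211 with miR-376a*A, 205, 176 and 211 with miR-376a*G and 290.1, 233 and 262 with the control miRNA, so the arrays of either form were below every control array. XPC fell by 0.33 on the log2 scale with miR-376a*A (SE 0.091, adjusted p = 0.0224) and by 0.38 with miR-376a*G (SE 0.091, adjusted p = 0.00938). The first call ended without control replicate 3 and without replicate 1 or 2 of miR-376a*A (adjusted p between 0.0574 and 0.0835), and the second without miR-376a*G replicate 2 (adjusted p = 0.0545). No difference between the forms passed for XPC, at 0.05 ± 0.091 (SE).

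Among the 6 genes of metabolism and secreted signals, 4 rose and 0 fell with miR-376a*A, while 3 rose and 2 fell with miR-376a*G. For this small block the shares of all features were 10.8% higher and 10% lower with miR-376a*A, and 11.8% and 13.1% with miR-376a*G. TIGAR, a phosphatase that lowers glycolytic flux and oxidative stress, rose with both forms. Its signal was 446, 448 and 448 with miR-376a*A, 435, 448 and 448 with miR-376a*G and 264, 284 and 284 with the control miRNA. The arrays of both forms were in one narrow band above all control arrays, with rises of 1.58-fold and 1.57-fold (adjusted p = 1.01e-05 and 9.4e-06) and a difference between the forms of 0.01 ± 0.062 (SE) that did not pass.

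SESN1, a sestrin that restrains the growth kinase mTORC1, was high with one form and low with the other. Signals of SESN1 were 128, 134 and 131 with miR-376a*A, 70.2, 67.0 and 72.6 with miR-376a*G and 101, 82.3 and 88.5 with the control miRNA. No array of any group overlapped another group. It rose by 0.47 ± 0.083 (SE, adjusted p = 0.00162) with miR-376a*A and fell by 0.31 (SE 0.083, adjusted p = 0.0163) with miR-376a*G, and the forms differed 1.71-fold (adjusted p = 3.02e-05). The fall with miR-376a*G did not pass without replicate 2 of that form (adjusted p = 0.0691), whereas the rise with miR-376a*A and the difference between the forms passed under every alternative tried.

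TP53INP1, which promotes p53 activity and autophagy, had signals of 134, 109 and 113 with miR-376a*A, 86.6, 85.7 and 100.1 with miR-376a*G and 77.9, 46.9 and 62.4 with the control miRNA. Every array of either form was above every control array, although the control arrays ranged widely. The rise was 0.80 ± 0.13 (SE, adjusted p = 0.000986) with miR-376a*A and 0.46 ± 0.13 (SE, adjusted p = 0.0213) with miR-376a*G. The call for miR-376a*G ended without miR-376a*G replicate 3, control replicate 2 or control replicate 3, and with no filter (adjusted p between 0.0508 and 0.0866). GDF15, a secreted stress cytokine, had signals of 225, 255 and 272 with miR-376a*A, 296, 274 and 341 with miR-376a*G and 164, 151 and 202 with the control miRNA. It rose 1.42-fold with miR-376a*A and 1.7-fold with miR-376a*G (adjusted p = 0.00611 and 0.000288), and no array of either form reached down to the control arrays.

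SPATA18, which acts in mitochondrial quality control, was dim, with signals of 47.9, 48.9 and 49.4 with miR-376a*A, 18.7, 22.3 and 26.7 with miR-376a*G and 54.1, 37.8 and 38.9 with the control miRNA. The miR-376a*G arrays were all below the other 6. It fell by 0.62 with miR-376a*G (SE 0.12, adjusted p = 0.00183), stood at 0.13 ± 0.12 (SE) with miR-376a*A, which did not pass, and differed between the forms by 0.75 ± 0.12 (SE, adjusted p = 0.000616). A second, dimmer probe set of SPATA18 gave -0.23 with miR-376a*G and did not pass. TP53I3, a quinone oxidoreductase gene, did not pass in any comparison, at 0.32 ± 0.13 and 0.10 ± 0.13 (SE), but passed for miR-376a*A without control replicate 2 (0.44, adjusted p = 0.0207).

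**Figure D2:**
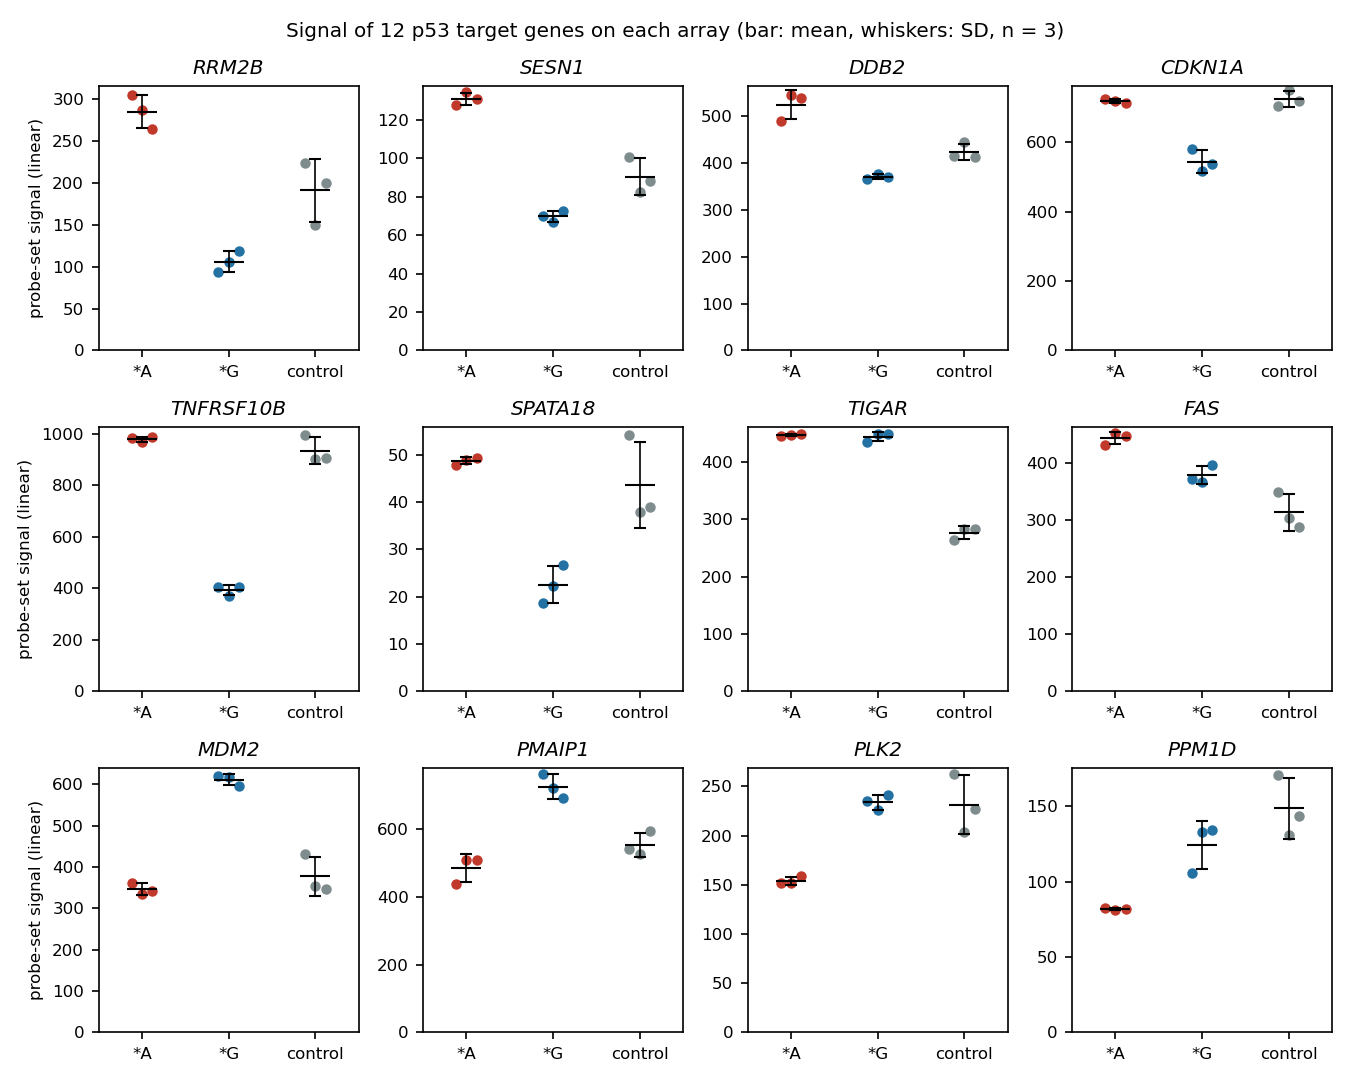
Linear probe-set signal of 12 p53 target genes on every array, with miR-376a*A, miR-376a*G and the control miRNA from left to right in each panel and bars and whiskers for the mean and SD (n = 3). In the RRM2B panel the miR-376a*A arrays lie between 265 and 305 and the miR-376a*G arrays between 93.5 and 119, on either side of the control arrays, while in the TIGAR panel both forms lie above the control.

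Of the 5 genes of cell cycle arrest, 2 rose and 1 fell with each form, but not the same gene fell. Over all features 10.8% rose and 10% fell with miR-376a*A, and 11.8% rose and 13.1% fell with miR-376a*G. CDKN1A encodes p21, the cyclin-dependent kinase inhibitor that carries out p53-dependent arrest. Its signal was 724, 719 and 714 with miR-376a*A, 579, 516 and 537 with miR-376a*G and 705, 750.2 and 718 with the control miRNA. With miR-376a*A the arrays were level with the control, at -0.01 ± 0.062 (SE), while all miR-376a*G arrays were lower. CDKN1A fell 1.32-fold with miR-376a*G (adjusted p = 0.000494) and was 1.31-fold higher with miR-376a*A than with miR-376a*G (adjusted p = 0.000748).

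PLK2, a polo-like kinase that acts in checkpoints, showed the reverse pattern, with signals of 152, 152 and 159 with miR-376a*A, 235, 226 and 241 with miR-376a*G and 263, 204 and 227 with the control miRNA. All miR-376a*A arrays were below the other 6 arrays. It fell by 0.53 on the log2 scale with miR-376a*A (SE 0.086, adjusted p = 0.000887), stood at 0.02 ± 0.086 (SE) with miR-376a*G and differed between the forms by -0.55 ± 0.086 (SE, adjusted p = 0.000651). Its relative PLK3 did not pass in any comparison, with 0.13 ± 0.08 and 0.20 ± 0.08 (SE), although its arrays with either form were above all control arrays.

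GADD45A, which binds p21 and PCNA after genotoxic stress, had signals of 658, 678 and 702 with miR-376a*A, 780.1, 759 and 742 with miR-376a*G and 461, 592 and 539.6 with the control miRNA. All arrays of both forms were higher than the control arrays, and those of miR-376a*G were the highest. The rises were 0.35 ± 0.081 (SE, adjusted p = 0.00852) with miR-376a*A and 0.51 ± 0.081 (SE, adjusted p = 0.000603) with miR-376a*G. BTG1, an antiproliferative gene, had signals of 475, 539 and 535 with miR-376a*A, 504, 579 and 493 with miR-376a*G and 284, 454 and 382 with the control miRNA. It rose by 0.47 ± 0.13 (SE, adjusted p = 0.0228) and 0.50 ± 0.13 (SE, adjusted p = 0.0152). All arrays of both forms lay above the control arrays, which ranged widely. A second probe set of BTG1 gave 0.11 ± 0.07 and -0.06 ± 0.07 (SE), neither of which passed. With miR-376a*A the BTG1 call was lost without replicate 2 or 3 of that form and with no filter (adjusted p between 0.0683 and 0.0786), and with miR-376a*G without replicate 2 of it and with the mean of the probe sets (adjusted p between 0.0716 and 0.0963).

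The 4 genes of feedback on p53 did not move together. MDM2, the ubiquitin ligase that marks p53 for degradation, had signals of 362, 334 and 341 with miR-376a*A, 620.3, 617 and 595 with miR-376a*G and 431, 355 and 346 with the control miRNA. The miR-376a*G arrays were all above the other 6. MDM2 rose 1.6-fold with miR-376a*G (adjusted p = 6.93e-05), stood at -0.11 ± 0.082 (SE) with miR-376a*A and was lower with miR-376a*A than with miR-376a*G by 0.79 (SE 0.082, adjusted p = 2.26e-05).

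Different probe sets of MDM2 gave different values. With miR-376a*G, 2 of its 6 other tested probe sets also passed as higher, at 1.06 and 0.93, and the remaining 4 ranged from -0.32 to 0.34 and did not pass. With miR-376a*A, 2 dim probe sets passed as lower, at -0.71 and -0.49, while the bright ones did not pass. Between the forms 3 others passed as lower with miR-376a*A and none as higher.

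PPM1D, the phosphatase WIP1 that reverses damage signalling to p53, had signals of 82.8, 81.5 and 82.1 with miR-376a*A, 106, 133 and 134 with miR-376a*G and 171, 131 and 144 with the control miRNA. Its miR-376a*A arrays were nearly equal and below all others. PPM1D fell by 0.74 with miR-376a*A (SE 0.1, adjusted p = 0.000323), where a second probe set gave -0.57 and passed too. The main probe set stood at -0.23 ± 0.1 (SE) with miR-376a*G, and the forms differed by -0.51 ± 0.1 (SE, adjusted p = 0.00452). The second probe set did not pass between the forms, at -0.29. With the mean of the probe sets PPM1D passed as lower with miR-376a*G too (-0.25, adjusted p = 0.0323).

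CCNG1, cyclin G1, which recruits a phosphatase that activates MDM2, had signals of 1425, 1466 and 1436 with miR-376a*A, 1338, 1256 and 1325 with miR-376a*G and 1218, 965 and 979 with the control miRNA. Arrays of both forms exceeded all control arrays, with rises of 0.45 ± 0.081 (SE, adjusted p = 0.00165) and 0.31 ± 0.081 (SE, adjusted p = 0.013). For miR-376a*G that call ended without control replicate 3 and after quantile normalization (adjusted p between 0.0567 and 0.0619). FBXO22, an F-box protein that takes part in p53 turnover, had signals of 513, 529 and 547 with miR-376a*A, 454, 415 and 414 with miR-376a*G and 435, 521 and 492 with the control miRNA. Control arrays overlapped both forms. FBXO22 did not pass against the control and was higher with miR-376a*A than with miR-376a*G by 0.30 ± 0.076 (SE, adjusted p = 0.0153), a call that ended without replicate 2 or 3 of either form and with the mean of the probe sets (adjusted p between 0.0551 and 0.0702). A second bright probe set of FBXO22 passed between the forms too, at 0.27, and against the control it passed as lower with miR-376a*G, at -0.42. With miR-376a*G the main probe set passed as lower without control replicate 1 (-0.24, adjusted p = 0.0108).

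Among the death receptors and CASP8, 2 of 5 genes rose and 0 fell with miR-376a*A, while 1 rose and 1 fell with miR-376a*G. Beside these few genes, 10.8% of all features rose and 10% fell with miR-376a*A, and 11.8% and 13.1% with miR-376a*G. FAS, the receptor of the Fas ligand, had signals of 433, 453 and 447 with miR-376a*A, 373, 367 and 397 with miR-376a*G and 350.4, 304 and 288 with the control miRNA. The groups did not overlap, with miR-376a*A highest and the control lowest. FAS rose 1.4-fold with miR-376a*A (adjusted p = 0.000764) and 1.2-fold with miR-376a*G (adjusted p = 0.025), and 3 of its 4 other tested probe sets passed as higher with each form. The remaining, dim one passed between the forms, at 0.46, where the main probe set did not. The call of the main probe set for miR-376a*G ended without any one array of that form, without control replicate 2 or 3, and in a fit of the compared groups alone (adjusted p between 0.0514 and 0.102).

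TNFRSF10A, TNFRSF10B and TNFRSF10C, receptors of the death ligand TRAIL, lie in one cluster on chromosome 8 and behaved differently. TNFRSF10B (DR5), which carries a death domain, had signals of 983, 967 and 985 with miR-376a*A, 405, 369 and 405 with miR-376a*G and 994, 900.2 and 906 with the control miRNA. The miR-376a*G arrays were far below the other 6, which overlapped. It fell 2.32-fold with miR-376a*G (log2 difference -1.21 ± 0.064 (SE, adjusted p = 7.21e-08)), stood at 0.07 ± 0.064 (SE) with miR-376a*A and was 2.43-fold higher with miR-376a*A than with miR-376a*G (adjusted p = 5.64e-08). Of its 3 dimmer probe sets, 2 also passed as lower with miR-376a*G, each at -0.52, and 1 stood at -0.0046, so the size of the fall differed between probe sets. With miR-376a*A that last probe set passed as higher, at 0.32. TNFRSF10A (DR4) was dim, with signals of 29.8, 28.2 and 37.3 with miR-376a*A, 24.3, 22.6 and 25.9 with miR-376a*G and 18.3, 21.6 and 17.6 with the control miRNA. The groups did not overlap, with miR-376a*A highest. TNFRSF10A rose by 0.44 ± 0.1 (SE, adjusted p = 0.00888) with miR-376a*A and stood at 0.20 ± 0.1 (SE) with miR-376a*G. Its rise did not pass with the mean of the probe sets (adjusted p = 0.138), and its 2 other tested probe sets, at 0.16 and 0.12, did not pass. TNFRSF10A averaged 31.8, 24.2 and 19.2 with miR-376a*A, miR-376a*G and the control. CDKN2A, whose locus these cells are known to lack, averaged 33.5, 29.7 and 32.6, so signals of this size need not mean expression.

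TNFRSF10C, a decoy receptor that lacks a death domain, was dim in all groups, between 17.0 and 25.7, and did not pass. CASP8, the initiator caspase that these receptors recruit, stood at -0.24 ± 0.083 and -0.08 ± 0.083 (SE) and did not pass in any comparison, although all its miR-376a*A arrays were below the control arrays. It passed as lower with miR-376a*A once arrays were centred on their medians (-0.27, adjusted p = 0.0407).

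Of the 9 other apoptosis genes, 1 rose and 1 fell with miR-376a*A, and 2 rose and 1 fell with miR-376a*G. Shares over all features were 10.8% higher and 10% lower with miR-376a*A, and 11.8% and 13.1% with miR-376a*G. BAX, which permeabilises the outer mitochondrial membrane, had signals of 289.8, 360.3 and 388 with miR-376a*A, 322, 303 and 319 with miR-376a*G and 177, 247 and 254 with the control miRNA. All arrays of both forms were above all control arrays. The rises were 0.59 ± 0.13 (SE, adjusted p = 0.00588) and 0.47 ± 0.13 (SE, adjusted p = 0.0178), the second of which ended without miR-376a*G replicate 1 or 3 and with no filter (adjusted p between 0.0516 and 0.0574). A second BAX probe set gave 0.44 and 0.38 and passed with neither form.

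PMAIP1, which encodes the BH3-only protein NOXA, had signals of 438, 507 and 508 with miR-376a*A, 763, 719.7 and 690.1 with miR-376a*G and 539, 526 and 592 with the control miRNA. The miR-376a*G arrays were the highest and the miR-376a*A arrays the lowest, with no overlap. PMAIP1 rose by 0.38 ± 0.077 (SE, adjusted p = 0.00304) with miR-376a*G, stood at -0.19 ± 0.077 (SE) with miR-376a*A and was lower with miR-376a*A than with miR-376a*G by 0.57 (SE 0.077, adjusted p = 0.000219). A second probe set placed both forms lower, at -0.61 ± 0.095 with miR-376a*A, which passed, and -0.25 ± 0.095 (SE) with miR-376a*G, which did not. The difference between the forms passed in both probe sets, whereas the rise with miR-376a*G rests on 1 and did not pass with their mean (adjusted p = 0.53). With that mean PMAIP1 passed as lower with miR-376a*A (-0.40).

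ZMAT3, a zinc finger RNA-binding protein that regulates splicing, had signals of 806, 758 and 734 with miR-376a*A, 723, 702 and 748 with miR-376a*G and 1007, 871 and 908 with the control miRNA. Every array of either form was below every control array. It fell by 0.27 with miR-376a*A (SE 0.069, adjusted p = 0.0142) and by 0.35 with miR-376a*G (SE 0.069, adjusted p = 0.00259). All 4 other tested probe sets of ZMAT3 were lower with both forms, 3 of them passing with miR-376a*A and 1 with miR-376a*G. Between the forms 1 of the 4 passed as lower with miR-376a*A, at -0.35, while the main probe set stood at 0.08 ± 0.069 (SE). The miR-376a*A call of the main probe set ended without replicate 2 or 3 of that form (adjusted p between 0.0574 and 0.0691).

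PHLDA3, an inhibitor of AKT, had signals of 278, 319 and 303 with miR-376a*A, 259, 217 and 197 with miR-376a*G and 225, 255 and 280.3 with the control miRNA. The miR-376a*A arrays were all above the miR-376a*G arrays. PHLDA3 did not pass against the control and was higher with miR-376a*A than with miR-376a*G by 0.40 ± 0.1 (SE, adjusted p = 0.0173), as was its second probe set, at 0.45, which passed against the control too, higher with miR-376a*A, at 0.31. That call of the main probe set ended without replicate 2 or 3 of either form (adjusted p between 0.0561 and 0.0886). TRIAP1, AEN, RPS27L, PERP and APAF1 did not pass in any comparison. TRIAP1, a small p53-induced inhibitor of apoptosis, came nearest, at 0.28 ± 0.096 (SE, adjusted p = 0.058) with miR-376a*A and 0.23 ± 0.096 (SE, adjusted p = 0.101) with miR-376a*G, and passed with both forms without control replicate 2 (0.40 and 0.35). AEN, an apoptosis-enhancing nuclease, stood at 0.01 ± 0.083 and -0.08 ± 0.083 (SE). RPS27L, a ribosomal protein paralogue, stood at 0.14 ± 0.067 and 0.0011 ± 0.067, the tetraspan membrane protein PERP at -0.00084 ± 0.076 and 0.03 ± 0.076, and APAF1, the scaffold of the apoptosome, at -0.19 ± 0.12 and -0.23 ± 0.12 (SE).

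**Figure D3:**
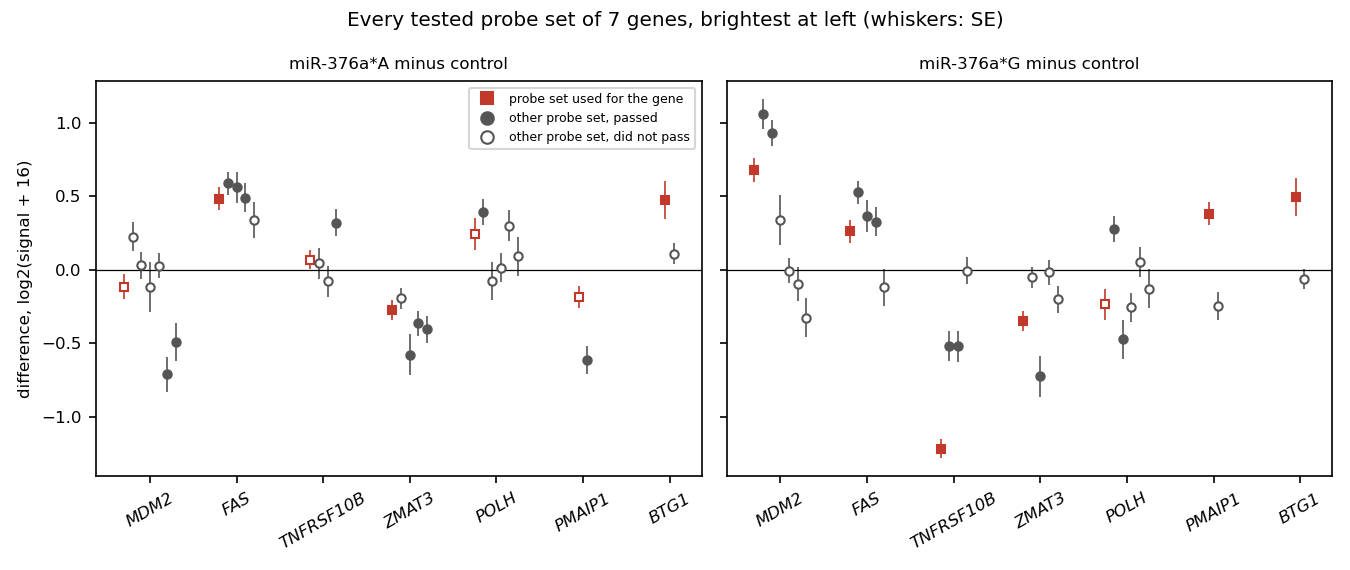
Log2 differences of every tested probe set of 7 genes for miR-376a*A minus control and miR-376a*G minus control, with squares for the probe set used, filled symbols for those that passed and whiskers for the SE. The probe sets of FAS and ZMAT3 lie mostly on one side of 0, while those of MDM2 spread from -0.71 to 0.23 with miR-376a*A and from -0.32 to 1.06 with miR-376a*G.

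More of the genes that modify or bind p53 fell than rose. Of 20 tested genes of that list, 1 rose and 8 fell with miR-376a*A, and 2 rose and 7 fell with miR-376a*G, with medians of -0.06 and -0.15. The calls are 45% of the list with each form. Of all features 20.8% passed with miR-376a*A (10.8% higher and 10% lower) and 24.9% with miR-376a*G (11.8% higher and 13.1% lower). EP300, the acetyltransferase that coactivates p53, averaged 153 ± 6.11 with miR-376a*A, 95.7 ± 1.47 with miR-376a*G and 268 ± 42.4 with the control (SD, n = 3 each). It fell 1.67-fold and 2.52-fold (adjusted p = 0.000171 and 9.56e-07) and was higher with miR-376a*A than with miR-376a*G by 0.60 ± 0.096 (SE, adjusted p = 0.000869). HIPK2, a kinase that phosphorylates p53 in the apoptotic response, fell 1.78-fold with miR-376a*G (adjusted p = 7.46e-07) and stood at -0.14 ± 0.059 (SE) with miR-376a*A. The deacetylase gene SIRT1 fell by 0.51, the ubiquitin ligase gene RCHY1 by 0.36 and the damage kinase gene ATM by 0.33 with miR-376a*A. TP53BP2, which encodes a p53-binding protein, fell by 0.42 with miR-376a*G, and the acetyltransferase gene KAT5 rose by 0.40. Between the forms 5 of the 20 were higher with miR-376a*A and 1 was lower, led by HIPK2, EP300, CREBBP (0.37) and the p53 inhibitor gene PPP1R13L (0.40). These 6 calls are 30% of the list, where 18.3% of all features passed (10.4% higher and 7.9% lower). The gene that was lower, KAT5 (-0.26, adjusted p = 0.0499), did not pass in 14 of the 20 alternatives (adjusted p between 0.051 and 0.204). With the mean of the probe sets 5 fell with miR-376a*A. Between the forms 3 were higher without replicate 2 of either form, and 5 were lower without control replicate 1 and 3 without control replicate 2. After centring on array medians 6 were lower between the forms, and the list median there was -0.05, against 0.01 without centring. MDM4, the MDM2 relative that masks p53's activation domain, rose by 0.31 ± 0.087 (SE, adjusted p = 0.0228) and 0.29 ± 0.087 (SE, adjusted p = 0.0296). Those calls ended with the mean of the probe sets (0.08 and 0.04), in a fit of the compared groups alone, after centring for miR-376a*A, with no filter for miR-376a*G, and without several single arrays (for miR-376a*A its replicate 1 or 3 or control replicate 3, adjusted p between 0.0676 and 0.0966; for miR-376a*G its replicate 2 or 3 or control replicate 3, adjusted p between 0.073 and 0.116).

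A further 24 p53 targets outside the 33 were listed, of which 21 were tested. With miR-376a*A 7 rose and 4 fell, and with miR-376a*G 2 rose and 8 fell, with medians of -0.01 and -0.15. The calls are 52.4% and 47.6% of the 21 genes, where 20.8% and 24.9% of all features passed. DRAM1, a regulator of autophagy, rose 1.5-fold with miR-376a*A (adjusted p = 0.00013) and stood at -0.17 ± 0.074 (SE) with miR-376a*G. The forms differed in DRAM1 by 0.75 ± 0.074 (SE, adjusted p = 1.46e-05). The cell cycle repressor gene E2F7 fell by 0.77 and 0.54 with the 2 forms, the stem cell factor gene KITLG fell by 0.64 and ASCC3 fell by 0.58 with miR-376a*G. SFN, the 14-3-3 sigma gene, fell by 0.47 with miR-376a*A and was lower with it than with miR-376a*G by 0.46, whereas ANKRA2 rose by 0.45 with miR-376a*A. The interferon-inducible gene TRIM22 fell by 0.44 with miR-376a*G. Between the forms 6 were higher with miR-376a*A and 2 lower, with SUSD6 (0.63) and the TRAIL decoy receptor gene TNFRSF10D (0.42) among those with the smallest p. These 8 calls are 38.1% of the 21 genes, where 18.3% of all features passed. The count of rises with miR-376a*A was 3 or 4 without any one miR-376a*A array or without control replicate 3, or 4 after centring or in a fit of the compared groups alone. With miR-376a*G 5 fell without its replicate 2 or 3, and 4 rose without control replicate 2.

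Of 14 tested genes of the apoptosis machinery that are not classed as p53 targets here, 0 rose and 1 fell with miR-376a*A in limma's test. That is 7.14% of the 14, where 20.8% of all features passed. In the same test 6 of the 14 had an unadjusted p under 0.05, and the share of all features at that level is not given here. The median of the list was 0.14 with miR-376a*A and 0.09 with miR-376a*G. The gene that fell, BCL2L1, encodes the survival protein BCL-XL and fell by 0.47 (SE 0.097, adjusted p = 0.00431). Without control replicate 2, 2 of the 14 rose, and without control replicate 1, 1 rose and 2 fell. With miR-376a*G 2 rose and 1 fell: BCL2L1 fell by 0.49, FADD, the adaptor between death receptors and CASP8, rose by 0.44 ± 0.09 (SE, adjusted p = 0.00349) and the survival gene MCL1 rose by 0.23. MCL1 stood at -0.012 (adjusted p = 0.942) with the mean of its probe sets, so that its rise was lost and its sign turned there. The 3 calls are 21.4% of the 14 genes, where 24.9% of all features passed. Without control replicate 2, 5 rose with miR-376a*G, and 4 did after centring on array medians. FADD also was lower with miR-376a*A than with miR-376a*G by 0.28 (adjusted p = 0.0449), a call that ended without any one array of either form, without control replicate 3, and in 3 other alternatives. Between the forms 3 of the 14 were lower without control replicate 1. The ligand genes TNFSF10 and FASLG were below the filter, with mean signals of at most 13.9 in any group.

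A list of cell cycle genes that are known to be repressed through p21 and the DREAM complex was compared between the forms. Of 21 tested genes 0 were higher and 11 lower with miR-376a*A than with miR-376a*G and 10 did not pass, where 7.9% of all features were lower. All 21 estimates were below 0, with a median of -0.22. In 7 of the 20 alternative fits 1 to 3 of the 21 estimates were above 0, and 7 genes passed as lower without replicate 1 or 3 of miR-376a*A or replicate 2 of miR-376a*G. CDK1 (-0.40), CENPA (-0.50), MCM2 (-0.30) and CCNB2 (-0.33) had the smallest p. Against the control 5 rose and 3 fell with miR-376a*A (median 0.06), or 8 rose without control replicate 2, and 12 rose and 0 fell with miR-376a*G (median 0.28). On all 9 arrays the calls are 38.1% and 57.1% of the 21 genes, where 20.8% and 24.9% of all features passed. CCNA2 (cyclin A2) rose 2.22-fold and 2.49-fold, and NEK2 and TOP2A rose with both forms, by 0.75 and 0.51 with miR-376a*A and by 0.97 and 0.64 with miR-376a*G. CENPA rose by 0.85 with miR-376a*G, and the replication helicase gene MCM5 fell by 0.29 with miR-376a*A.

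Array by array, the mean deviation of the 33 genes from their 9-array average was 0.07, 0.11 and 0.13 (log2) with miR-376a*A, -0.06, -0.06 and -0.01 with miR-376a*G and -0.06, -0.07 and -0.04 with the control miRNA. The miR-376a*A arrays were the highest, and the other 6 overlapped. The median of all features on these arrays deviated by 0.02 to 0.03, -0.02 to 0.01 and -0.01 to 0.01. With every array set to a common median, 12 of the 33 were higher and 5 lower with miR-376a*A, and the list median was 0.11. Between the forms the list median was 0.05 after that step, against 0.11 before it, with 19 rather than 23 of the 33 estimates above 0 and the same counts of 9 higher and 4 lower.

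**Figure D4:**
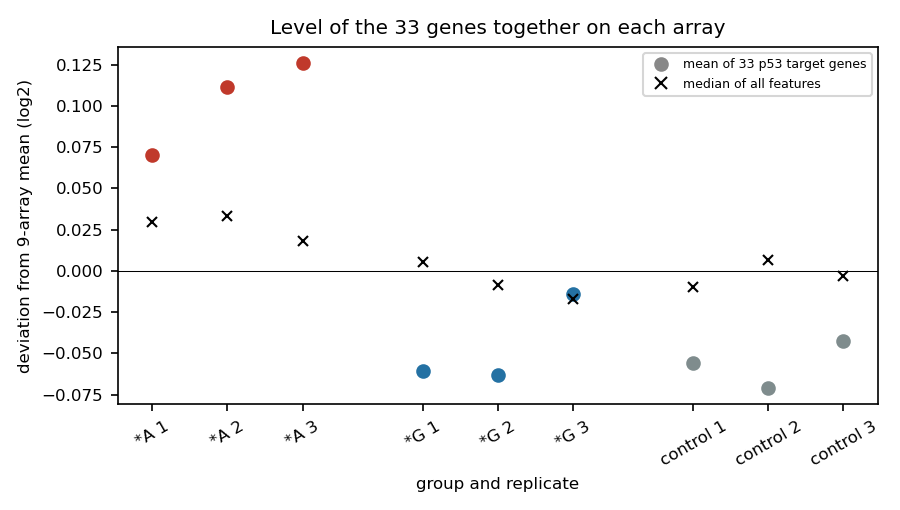
Mean deviation of the 33 p53 target genes from their average over 9 arrays (circles, log2) on each array, with the median deviation of all features as crosses. The 3 miR-376a*A arrays lie between 0.07 and 0.13, above the miR-376a*G and control arrays, which lie between -0.07 and -0.01.

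Array medians were 18.0 to 20.4 and within-group correlations across genes, which are not independent replicates, were 0.987 to 0.995. The spread around the group mean was widest on control replicates 1 and 2 (SD of 0.16 and 0.15 on the log2 scale) and 0.10 to 0.11 on the other 7 arrays. The mesenchymal glioma markers VIM and CD44 were bright (group means from 1863 to 2303), whereas the astroglial markers GFAP and S100B were near 0. From the same marker list NES had group means from 68.4 to 82.3 and OLIG2 was dim, from 18.3 to 21.1. Summed signals of the 3 leukocyte and 3 epithelial markers were at most 28.4 on any array. Among them CD3E, dim in all groups, fell by 0.51 with miR-376a*G (adjusted p = 0.0175). The 3 endothelial markers summed to 90.0 to 97.0 with miR-376a*A, 50.7 to 53.3 with miR-376a*G and 45.9 to 54.4 with the control. Of these PECAM1 was the one above the filter, at 0.71 ± 0.082 (SE, adjusted p = 6.25e-05) for miR-376a*A against control, while CDH5 and VWF were at most 6.6 on average in any group. The part of such differences in the results on p53 targets was not tested.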

How the data were processed

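Total RNA from 9 U87 cultures, 3 per group, was measured on 1 Affymetrix array each. The deposited values are linear signal intensities per probe set. GCOS 1.4.0.036 is listed, per the submitters' processing notes, and the signal algorithm is not given in the sources used here. Each deposited array had a 2% trimmed mean of 100.01, so a global change in RNA content would not show. The 62 array controls among 54675 probe sets were not tested. Signals were taken as log2(signal + 16), which compresses the folds of dim genes. Probe sets under the 40th percentile of mean log2 value (a signal of 11.3) were left out. Each single-symbol gene was read from its brightest probe set, and probe sets with no or several symbols stayed as features of their own. limma 3.58.1 in R 4.3.3 (lmFit, contrasts, eBayes with an intensity trend) was fitted to all 9 arrays, with two-sided tests and Benjamini-Hochberg adjustment over 20068 features. It was tested on simulated data. Tables, motif searches and figures used Python 3.11.15, pandas 2.3.3 and matplotlib 3.10.9. The labels call the samples biological replicates, and 3 per group limits the precision. The labels name no batch.

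The members, gene lists and tests were chosen with earlier results of these data known. Every member is named, with array values for those that passed in at least 1 comparison and, from other lists, up to 4 genes per comparison with the smallest p. All probe sets as features is an alternative chosen after seeing the data. Alternatives covered scaling, filter, offset, variance model, probe set rule, arrays in the fit, replicate block and each array left out. Sequences are from RefSeq (GRCh38.p14), and all 33 symbols matched its gene table.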

Additional observations from a re-analysis of the deposited data

How the results depend on the processing

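Across 20 alternatives, 12 of 16 calls of the 33 genes for miR-376a*A against control, 9 of 17 for miR-376a*G against control and 11 of 13 between the forms passed in every one, and no call of a member changed sign. Leaving out single arrays gave 11 to 15 higher and 2 to 4 lower members for miR-376a*A, 7 to 10 higher and 5 to 9 lower for miR-376a*G, and 7 to 13 higher and 4 to 5 lower between the forms, the 2 lower without miR-376a*A replicate 2 (XPC and ZMAT3 lost). In a fit of the compared groups alone 14 members were higher with miR-376a*A than with miR-376a*G, a fit whose estimate of the spread leaves out the control arrays, and 13 were without control replicate 1. Correlations of deviations from the group means were -0.11 to 0.07 for equal replicate numbers and -0.12 to 0.14 for others. Between miR-376a*A and the control, equal numbers gave 0.04 to 0.07 and the others -0.06 to -0.0016. Whether the numbers pair the samples is not settled by these small values. With the replicate block the member counts were 12 and 4, 10 and 7, and 9 and 4, as without it. Of the apoptosis machinery 4 genes rather than 2 rose with miR-376a*G under the block, and KAT5 no longer passed between the forms. Over all features, 1659 higher and 2353 lower passed for miR-376a*A after centring on the array median, against 2164 and 2013, and 1509 and 2217 against 2086 and 1585 between the forms. Without miR-376a*G replicate 2, 2331 features passed between the forms, and 2441 without miR-376a*A replicate 2, against 3671. For miR-376a*G against control the centred split was 2594 and 2309, against 2374 and 2619. With the mean of the probe sets MCL1 stood at -0.012 with miR-376a*G. Dim members, such as TNFRSF10A, TNFRSF10C and SPATA18, have compressed folds, and their precision is limited by signal over background.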
